A study of Saccharomyces cerevisiae with 90 samples.

Results

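Wild-type budding yeast (Saccharomyces cerevisiae) after 6 h in SD liquid was compared with wild-type at 0 h in SD liquid, the start of the growth period. Each group has 3 arrays, lettered A to C in the labels, so the comparison rests on 6 of the 90 arrays of the series, with the arrays of each group chosen by their labels. The series asked how yeast responds to touch, by way of a mucin on the cell surface and MAP kinase signalling, and set liquid cultures against solid substrates in wild-type and altered strains. A further pair of groups was used beside the liquid ones: wild-type on SD agar at 6 h (3 arrays) and wild-type on SD agar at 0 h (6 arrays, A to F). The genotype of all 4 groups is given as wild-type, with no strain name, and the nutrient composition as SD, which the labels do not spell out. All cells were quick-frozen in acid phenol, and total RNA was labelled with biotin and read on Affymetrix arrays. The labels do not say how the cells were grown before 0 h, at what density they were taken, or whether A, B and C came from separate cultures. The p values and standard errors given here therefore rest on the spread between arrays of a group, which may be technical. That spread was estimated over all 90 arrays, not the 6 compared ones alone.

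Yeast cells that run short of sugar build up glycogen and trehalose, raise high-affinity hexose transporters and stress proteins, and start autophagy, and these programmes are turned down when sugar is plentiful. Iron uptake is switched on by the factors Aft1 and Aft2 when iron is short, through cell-wall mannoproteins that hold iron chelates, siderophore transporters and surface reductases. Nitrogen catabolite repression keeps permeases and enzymes for poor nitrogen sources silent while good nitrogen sources last. The signalling mucin Msb2 and the MAP kinase Kss1 act on the factors Ste12 and Tec1, and the adhesin Flo11 is a known output of that pathway.

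Signals are log2 values, changes are log2 differences at 6 h minus 0 h with the standard error of limma's fit, and levels are means ± SD over 3 arrays. The verbs rose and fell stand for an adjusted p under 0.05, reached by 1107 of 5449 genes upwards (20.3%) and by 1933 downwards (35.5%), and counts of list members are to be read against these shares. At a change of at least 2-fold as well, 82 genes were higher (1.5%) and 265 lower (4.86%) at 6 h. All 3 arrays at 6 h lay above all 3 at 0 h in 1339 genes (24.6%) and below them in 2329 genes (42.7%). The median gene changed by -0.12, because the tested genes had a median signal of 10.57 to 10.64 on the 6 h arrays and 10.75 to 10.77 on the 0 h arrays. Changes are read against that shift, and in such bulk RNA a change in the RNA of each cell and a change in the mix of cells cannot be told apart. After quantile normalization the median change was -0.00 and 135 genes were higher against 179 lower, and after centring each array on its median it was 0.03 with 155 higher and 199 lower, so the share of higher genes moved to 43.0% and 43.8%, against 23.6% with the signals as deposited. At any size, 1445 genes rose and 1437 fell after quantile normalization, and 1640 rose and 1257 fell after centring. List counts after either scaling are to be read against these totals over 5449 genes. Arrays of different times lay 0.523 to 0.637 apart (root mean square over genes), and arrays of 1 time 0.184 to 0.239 apart. The limit of background was 6.10 to 6.17 on the 6 h arrays and 5.94 to 5.97 on the 0 h arrays, and 24 of the 265 lower genes were under it on all 3 arrays at 6 h. Folds of such genes are given as at least the fold over that limit.

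The choice of the start bears on most results. The 0 h arrays labelled liquid and the 0 h arrays labelled agar differed by at least 2-fold in 379 genes (6.96%), of which 281 were higher (5.16%) and 98 lower (1.8%) in liquid, and at any size 27.2% of genes were higher and 22.2% lower. At 6 h, 153 genes were higher (2.81%) and 94 lower (1.73%) in liquid than on agar. Set against the 0 h agar arrays, the 6 h liquid arrays had 103 higher (1.89%) and 74 lower (1.36%) genes, and at any size 23% of genes were higher and 34.4% lower. The titles of the 0 h liquid arrays also carry a letter b that those of the wild-type 6 h liquid arrays lack. Its meaning is not given, and since it marks a whole group, whatever it stands for cannot be told apart from time. With the 0 h agar arrays as the start, 49 of the named genes that had passed with the liquid start changed sign. Of these, BAP3 and BSC5 were not above background in either group, and where the turned change passed the test its value is given beside the result.

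**Figure D1:**
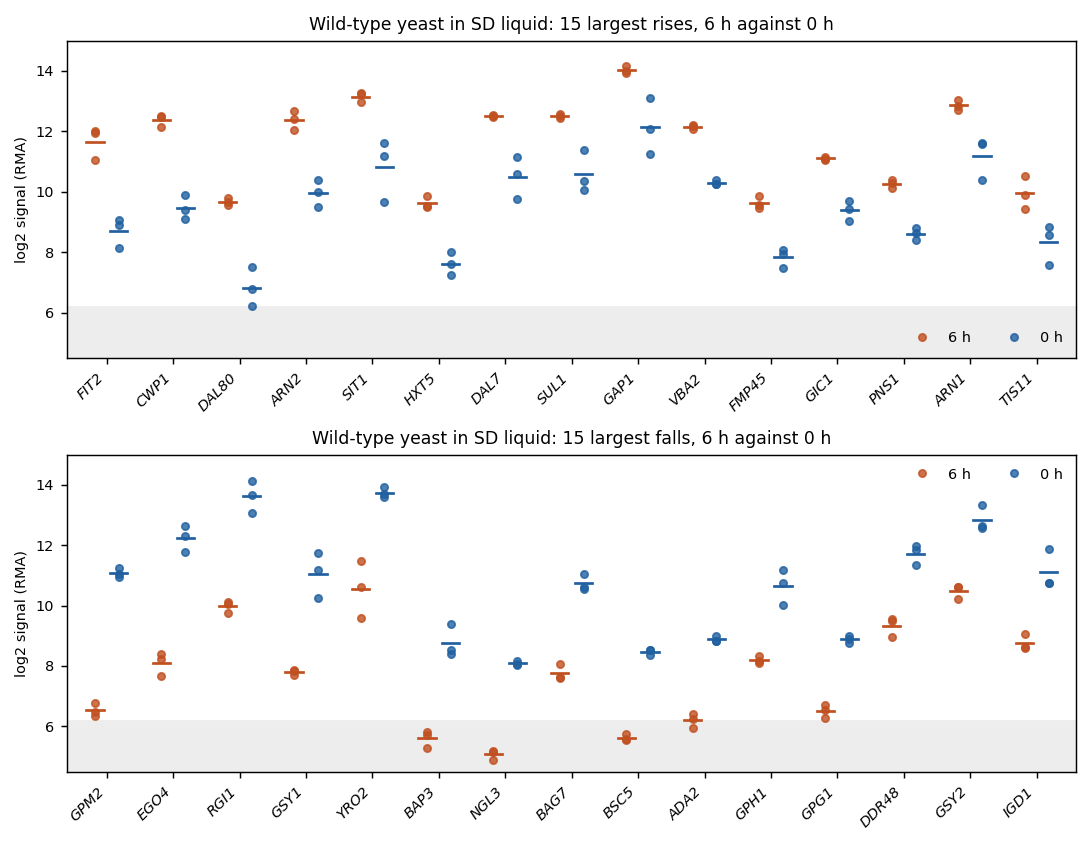
Log2 signal of each array for the 15 genes with the largest rise (upper panel) and the largest fall (lower panel) at 6 h against 0 h in wild-type SD liquid, among named genes at least 2-fold changed whose arrays do not overlap. Points are arrays, bars are means of 3, and the grey band lies under the highest background limit of the 6 arrays (6.17), in which BAP3, NGL3 and BSC5 sit at 6 h.

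The largest fall among named genes was that of GPM2. GPM2, a homologue of the glycolytic phosphoglycerate mutase that is thought not to be active, read 6.35, 6.78 and 6.48 on the 6 h arrays A, B and C, against 11.05, 11.23 and 10.95 at 0 h. The groups were far apart and GPM2 fell 23.3-fold, a change of -4.54 ± 0.32 (adjusted p = 6.87e-18). EGO4 read 7.67, 8.22 and 8.40 at 6 h, against 11.76, 12.63 and 12.31 at 0 h, and fell by 4.14 on the log2 scale (SE 0.34). RGI1, a gene named for its induction in respiratory growth, read 9.74, 10.06 and 10.13 at 6 h, against 13.07, 14.12 and 13.66 at 0 h, and fell 12.4-fold. YRO2, a plasma membrane protein of the Hsp30 family, read 9.58, 10.60 and 11.47 at 6 h, against 13.92, 13.59 and 13.70 at 0 h. It was the most scattered of these genes at 6 h and changed by -3.18 ± 0.54. Against the 0 h agar arrays these 4 genes were higher at 6 h, by 0.40 for GPM2, 0.48 for EGO4, 0.54 for RGI1 and 3.73 for YRO2, the last of which passed the test (adjusted p = 1.31e-09).

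Glycogen genes fell together with them. Of 13 measured genes of glycogen synthesis and breakdown, 9 fell and 1 rose, 8 of the falls were at least 2-fold, and the median change was -1.18. GSY1, the minor glycogen synthase, read 7.69, 7.86 and 7.84 at 6 h, against 10.25, 11.73 and 11.19 at 0 h, and fell 9.60-fold (change -3.26 ± 0.40, adjusted p = 7.25e-10). GSY2, the major glycogen synthase, read 10.21, 10.60 and 10.61 at 6 h, against 12.58, 13.32 and 12.64 at 0 h, and fell 5.17-fold. Synthesis and breakdown moved the same way, since GPH1, the glycogen phosphorylase, read 8.09, 8.16 and 8.34 at 6 h, against 10.03, 11.17 and 10.75 at 0 h, and changed by -2.45 ± 0.40. The priming glycogenin GLG1 changed by -1.65 ± 0.27 and the branching enzyme GLC3 by -1.23 ± 0.32, while the second glycogenin GLG2, named after its value was seen, rose by 0.59. Against the 0 h agar arrays GLG1 and GLC3 were higher at 6 h, by 1.23 and 0.62, and both passed. Of genes beside this list, PGM2, the main phosphoglucomutase that feeds it, changed by -1.70 ± 0.35, and IGD1, an inhibitor of glycogen debranching, by -2.36 ± 0.33.

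Trehalose genes also fell: 6 of 7 measured, 4 of them at least 2-fold, at a median of -1.05. The synthase subunits TPS1 and TPS2 changed by -1.05 ± 0.17 and -1.18 ± 0.18, and the regulatory subunit TSL1 by -1.23 ± 0.38, while its paralogue TPS3 changed by -0.20 ± 0.14 and did not pass (adjusted p = 0.201), although it did in a fit of the compared groups alone (adjusted p = 0.0301). TPS1 read 12.75, 12.84 and 12.87 at 6 h, against 13.84, 14.02 and 13.74 at 0 h, with no overlap. The enzymes that break trehalose down were lower too, NTH1 by -1.14 ± 0.13, NTH2 by -0.46 ± 0.13 and ATH1 by -0.49 ± 0.15. The last 2 did not pass after quantile normalization (adjusted p = 0.135 and 0.394) or centring (adjusted p = 0.0513 and 0.0572). With the 0 h agar arrays as the start, the glycogen list had 4 rises and 1 fall (median 0.35) and the trehalose list none of either (median 0.08).

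Hexose transporters moved in opposite directions. Of 15 measured, 4 rose and 3 fell, with a median of 0.10. The list includes 4 genes not above background on any 6 h array and 4 on any 0 h array. HXT4, a transporter of higher affinity used when glucose is low, read 9.91, 10.19 and 10.37 at 6 h, against 12.17, 12.96 and 12.39 at 0 h, and fell 5.11-fold. HXT7, a high-affinity transporter whose probe set is shared with other sequences, read 10.37, 10.62 and 10.68 at 6 h, against 11.86, 13.33 and 12.32 at 0 h, and changed by -1.95 ± 0.37. HXT5, a transporter linked to slow growth, went the other way, with 9.48, 9.53 and 9.86 at 6 h against 7.60, 7.99 and 7.25 at 0 h, a change of 2.01 ± 0.23. MTH1, a corepressor of HXT genes in the absence of glucose, read 6.82, 6.72 and 6.51 at 6 h, against 7.96, 9.80 and 8.58 at 0 h, and changed by -2.10 ± 0.47. HXT4 was 1.17 higher and MTH1 0.67 higher at 6 h with the 0 h agar arrays as the start, the second without passing the test (adjusted p = 0.159).

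Most glycolytic genes showed little difference in the signals as deposited. Of 20 glycolysis and fermentation genes, 2 rose, 4 fell and 14 did not pass, with a median of 0.01, while after centring 15 rose and 3 fell. At least 2-fold lower were HXK1, the hexokinase isoform induced on poor carbon sources, at -2.14 ± 0.49, and TDH1, the glyceraldehyde-3-phosphate dehydrogenase isoform of non-dividing cells, at -1.85 ± 0.22, although TDH1 was 1.02 higher against the 0 h agar arrays. TDH1 read 12.58, 12.69 and 13.19 at 6 h, against 14.67, 14.73 and 14.62 at 0 h, whereas the main isoform TDH3, the brightest gene in both groups, read 15.60 ± 0.01 at 6 h and 15.59 ± 0.03 at 0 h. The next brightest genes, the elongation factor gene TEF2 and the cell wall gene CCW12, also differed by no more than 0.02 in the signals as deposited, and after centring TDH3, TEF2 and CCW12 were 0.16, 0.13 and 0.12 higher at 6 h and passed. In the TCA cycle 8 of 17 genes rose and 5 fell (median 0.19), with 0.85 ± 0.11 for IDH2, a subunit of isocitrate dehydrogenase, 0.82 ± 0.14 for SDH3, a subunit of succinate dehydrogenase, and -0.56 ± 0.11 for MDH1, the mitochondrial malate dehydrogenase. Of 33 respiratory chain and ATP synthase genes 12 rose and 10 fell, at a median of 0.00, which was 0.15 after centring.

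Genes for using acetate and ethanol split. Of 28 genes of the glyoxylate cycle, gluconeogenesis and acetate and ethanol use, 7 rose and 6 fell, 3 on each side at least 2-fold, and the median was -0.01 (0.13 after centring). ALD6, the cytosolic acetaldehyde dehydrogenase, rose by 1.52 ± 0.20, ADH2, the glucose-repressed alcohol dehydrogenase, by 1.38 ± 0.30, and ADR1, its activator, by 1.04 ± 0.29. ALD6 was lower against the 0 h agar arrays, at -1.02 (adjusted p = 1.78e-06). YAT2, a carnitine acetyltransferase, fell, with a change of -1.13 ± 0.18. SIP4, a regulator of gluconeogenesis, was not above background on any 6 h array and was at least 1.60-fold lower. SFC1, a mitochondrial succinate-fumarate carrier, was at least 1.52-fold lower on the same ground, was above background on 2 of 3 arrays at 0 h, and did not pass without 0 h replicate B (change -0.60, adjusted p = 0.0589) or in a fit of the compared groups alone (adjusted p = 0.0606). Of 26 genes of fatty acid oxidation and the peroxisome, 7 rose and 6 fell (median 0.09), led by ANT1, the peroxisomal ATP carrier, at 1.10 ± 0.13.

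General stress genes fell in most cases. Of 31 measured effectors of the Msn2 and Msn4 type, 20 fell and 4 rose, 10 and 2 of them at least 2-fold, with a median of -0.64. HSP104, the disaggregase, read 11.41, 11.90 and 11.98 at 6 h, against 13.76, 13.56 and 13.80 at 0 h, and changed by -1.94 ± 0.27. The small heat shock protein gene HSP42 changed by -1.93 ± 0.46, DDR48, a gene induced by DNA damage and other stress, by -2.38 ± 0.25, YGP1, a secreted glycoprotein of starved cells, by -1.87 ± 0.43, and GPX1, a glutathione peroxidase, by -1.53 ± 0.12. HSP12, a membrane-binding stress protein and a common read-out of Msn2 and Msn4, ran against the list, with 10.29, 10.38 and 10.79 at 6 h against 8.94, 9.79 and 8.71 at 0 h, a change of 1.34 ± 0.37. With the 0 h agar arrays as the start, 6 of the list rose and 8 fell (median 0.06), HSP12 differed by -0.85, HSP104 by 0.70, and DDR48 by -0.87.

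Related stress lists moved less evenly. Of 24 stationary-phase and quiescence genes 10 fell and 4 rose (median -0.17), with -2.25 ± 0.30 for STF2, a hydrophilin linked to ATP synthase, -1.63 ± 0.34 for FMP16, and 1.81 ± 0.29 for FMP45, a membrane protein of the cell cortex. SNZ1 and SNO1, the paired vitamin B6 genes that mark stationary phase, changed by -1.56 ± 0.20 and -1.33 ± 0.31. Of 27 heat shock chaperone genes 9 fell and 5 rose (median -0.16), but after centring 5 fell and 10 rose (median -0.01). Among the falls were HSP78, the mitochondrial disaggregase, at -1.56 ± 0.29 and SSA1, a cytosolic Hsp70, at -1.21 ± 0.29. Of 17 genes of glycerol and the osmotic response 10 fell and 4 rose (median -0.23), with -1.65 ± 0.20 for GCY1, a glycerol dehydrogenase, -1.42 ± 0.29 for the aquaporin AQY2, and -1.23 ± 0.27 for GPD2, a glycerol-3-phosphate dehydrogenase. AQY2 was 1.06 higher at 6 h against the 0 h agar arrays. Of 27 oxidative stress and redox genes 9 fell and 7 rose, at a median of -0.01, which was 0.14 after centring. Of 21 low-oxygen genes 5 rose and 4 fell (median 0.14), yet the low-oxygen isoforms COX5B and CYC7 of cytochrome oxidase subunit and cytochrome c were lower, by -1.88 ± 0.26 and -1.79 ± 0.33.

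Autophagy genes fell. Of 30 measured genes of autophagy and vacuolar proteolysis, 19 fell and 5 rose, 7 and 1 of them at least 2-fold, with a median of -0.55. These counts include 3 genes not above background on any 6 h array and 1 on any 0 h array, whose sizes of change cannot be read. ATG8, the ubiquitin-like protein that is joined to the autophagosome membrane, read 9.01, 9.09 and 9.07 at 6 h, against 10.88, 11.20 and 11.09 at 0 h, and fell 4.00-fold (adjusted p = 5.69e-11). ATG29 and ATG31, 2 scaffold subunits that start autophagosomes under starvation, changed by -1.87 ± 0.18 and -1.15 ± 0.18, and APE1, the vacuolar aminopeptidase delivered by a related route, by -1.22 ± 0.17. The proteasome fell by less but with few exceptions: 26 of 32 genes fell, none rose, the median was -0.31 and no gene reached 2-fold. RPN5 and RPN9, lid subunits, changed by -0.76 ± 0.16 and -0.70 ± 0.11, and PRE1, a core subunit, by -0.69 ± 0.12. After centring, 15 of the 32 fell and none rose (median -0.17). Against the 0 h agar arrays the autophagy list had 9 rises and 7 falls (median -0.00), and the proteasome 18 falls and no rise (median -0.18).

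Genes of iron uptake rose. Of 30 measured, 24 rose and none fell, 8 of them at least 2-fold, with a median of 0.85, and the same counts of 24 and 0 were found after quantile normalization and after centring. FIT2, a cell-wall mannoprotein that holds iron chelates, read 11.04, 11.94 and 12.01 at 6 h, against 9.06, 8.91 and 8.13 at 0 h, and rose 7.78-fold (change 2.96 ± 0.47, adjusted p = 3.33e-07). The siderophore transporter ARN2 read 12.05, 12.68 and 12.40 at 6 h, against 10.40, 10.01 and 9.50 at 0 h, and rose 5.30-fold. SIT1, a transporter of ferrioxamine, read 13.23, 13.26 and 12.96 at 6 h, against 11.63, 11.17 and 9.66 at 0 h. In all 3 genes the groups were apart, and 0 h replicate C was the lowest array. ARN1, a ferrichrome transporter, changed by 1.67 ± 0.27, the surface reductase FRE1 by 1.26 ± 0.19, and TIS11, which speeds decay of mRNAs for iron-using proteins, by 1.62 ± 0.37. VHT1, the biotin transporter that Aft1 also controls, rose by 1.14 ± 0.16. With the 0 h agar arrays as the start, 16 of the 30 rose and 3 fell (median 0.42), with 2.53 for FIT2 and 2.07 for ARN2 but 0.53 for SIT1, which did not pass (adjusted p = 0.0763), and -0.64 for TIS11.

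Genes under nitrogen catabolite repression rose in part. Of 33 measured, 17 rose and 8 fell, 9 and 1 of them at least 2-fold, with a median of 0.34. DAL80, a GATA-type repressor that is itself under this control, read 9.80, 9.65 and 9.55 at 6 h, against 7.50, 6.20 and 6.79 at 0 h, and rose 7.14-fold (change 2.84 ± 0.39, adjusted p = 1.58e-08). GAP1, the general amino acid permease, read 13.94, 14.18 and 13.999 at 6 h, against 13.10, 11.26 and 12.08 at 0 h, and rose 3.71-fold. DAL7, the malate synthase of allantoin use, read 12.55, 12.50 and 12.47 at 6 h, against 11.15, 9.77 and 10.60 at 0 h. Arrays at 6 h lay close together while those at 0 h were spread, with replicate B lowest in these 3 genes and A highest. DAL5, the allantoate permease, rose by 1.51 ± 0.45 but did not pass without 0 h replicate B (change 1.07, adjusted p = 0.0667). The ureidoglycolate hydrolase DAL3 changed by 1.41 ± 0.22 and the proline permease PUT4 by 1.27 ± 0.28. With the 0 h agar arrays as the start, 10 of the 33 rose and 4 fell (median 0.19), and DAL80 and DAL7 differed by -0.30 and -0.11, while PUT4 rose by 1.25.

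Amino acid and peptide permeases changed in both directions. Of 22 measured, 9 rose and 5 fell, 3 on each side at least 2-fold, with a median of 0.24. The peptide and glutathione transporter OPT1 changed by 1.36 ± 0.25, the oligopeptide transporter OPT2 by 1.24 ± 0.23 and the di- and tripeptide transporter PTR2 by 1.12 ± 0.31. BAP3, a branched-chain amino acid permease that extracellular amino acids induce, read 5.30, 5.82 and 5.72 at 6 h, not above background, against 9.39, 8.54 and 8.40 at 0 h, and was at least 6.26-fold lower (adjusted p = 3.71e-11). AGP1, a broad amino acid permease, changed by -1.61 ± 0.30 and DIP5, the acidic amino acid permease, by -1.04 ± 0.19. AGP1 was 0.72 higher against the 0 h agar arrays. VBA2, a vacuolar permease of basic amino acids outside this list, read 12.09, 12.17 and 12.22 at 6 h, against 10.39, 10.26 and 10.25 at 0 h, and rose 3.62-fold. Genes for making amino acids moved little: none of the lists for arginine and ornithine (10 genes, 3 rose and 5 fell, median -0.22), lysine (9 genes, 2 and 3, median -0.05), branched-chain amino acids (12 genes, 3 and 2, median 0.03), histidine, tryptophan and other aromatic amino acids (21 genes, 2 and 11, median -0.18) or other amino acids, GCN4 and proline (21 genes, 7 and 7, median 0.01) held a change of 2-fold.

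Sulfur genes leaned upwards. Of 30 measured genes of sulfate, methionine and cysteine metabolism 11 rose and 3 fell (median 0.12). SUL1, a high-affinity sulfate permease, read 12.58, 12.50 and 12.45 at 6 h, against 10.36, 11.37 and 10.06 at 0 h, and rose 3.76-fold (adjusted p = 1.38e-12). MET8, an enzyme of sirohaem synthesis, rose by 1.12 ± 0.17. Against the 0 h agar arrays the list had 5 rises and 18 falls (median -0.37), and SUL1 was lower, by -0.73. With that start MET8 differed by 0.01 and did not pass (adjusted p = 0.957).

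Nucleotide and vitamin genes gave a few large changes in lists that otherwise moved little. Of 12 pyrimidine genes 3 rose and 5 fell (median -0.12, or 0.03 after centring). URA10, the minor orotate phosphoribosyltransferase, read 8.64, 8.72 and 8.55 at 6 h, against 10.68, 10.87 and 11.02 at 0 h, and fell 4.67-fold. The CTP synthase URA8 changed by -1.29 ± 0.12, but by 0.55 against the 0 h agar arrays, and the uracil permease FUR4 by 1.16 ± 0.22. Of 20 purine and one-carbon genes 1 rose and 8 fell (median -0.07, or 0.07 after centring). Of 13 biotin and NAD genes 2 rose and 5 fell (median -0.02, or 0.12 after centring), the falls led by BNA1 and BNA2, enzymes of NAD synthesis from tryptophan, at -1.67 ± 0.14 and -1.49 ± 0.20. Of 14 thiamine genes 3 rose and 5 fell (median -0.15, or 0.03 after quantile normalization), and THI4, the thiazole synthase, rose by 1.06 ± 0.22.

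Other metal and phosphate genes did not follow iron. Of 14 zinc genes 5 rose and 3 fell (median 0.19), but ZRT1, the high-affinity zinc transporter, read 10.71, 11.02 and 11.00 at 6 h, against 13.47, 12.56 and 13.59 at 0 h, and fell 4.90-fold. Against the 0 h agar arrays ZRT1 was 1.54 higher. Of 9 copper genes 3 rose and 4 fell (median -0.01, or 0.14 after centring), with 0.92 ± 0.13 for the vacuolar copper transporter CTR2 and -1.37 ± 0.13 for the metallothionein CRS5. Of 21 phosphate genes 6 rose and 3 fell (median 0.10), with 1.32 ± 0.28 for PHM7 and -2.03 ± 0.31 for PHM8, a phosphatase of lysophosphatidic acid and nucleotides. PHM8 was 2.02 higher against the 0 h agar arrays (adjusted p = 5.5e-09). Of 25 ergosterol genes 13 rose and 3 fell (median 0.12), and of 20 genes of fatty acid and phospholipid synthesis 7 rose and 6 fell (median 0.10), none of them by 2-fold in either list.

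The translation machinery changed by small amounts, whose direction depended on the scaling. Of 128 cytosolic ribosomal protein genes 15 rose and 44 fell, with a median of -0.06 and no change of 2-fold. The share of falls was close to that over all genes, and the share of rises was lower. After centring 57 rose and 1 fell (median 0.08), against 1640 and 1257 of all 5449 genes. RPL4B, with the largest rise among the ribosomal protein genes, changed by 0.98 ± 0.22. Of 55 ribosome biogenesis factors 2 rose and 10 fell (median -0.12, or 0.02 after centring), TIF6, a factor in the maturation of the large ribosomal subunit, rising by 0.60 ± 0.09, and of 20 subunits of RNA polymerases I and III 3 rose and 5 fell (median -0.06, or 0.08 after centring). Falls prevailed under each scaling in translation factors (13 of 24 fell and 3 rose, median -0.32) and in cytosolic tRNA synthetases (14 of 18 fell and none rose, median -0.28), with 11 and 8 falls left after centring. Examples were SES1 for serine at -0.49 ± 0.09 and FRS1 for phenylalanine at -0.45 ± 0.08. Of 66 mitochondrial ribosomal protein genes 25 fell and 2 rose (median -0.22), but after centring 11 fell and 8 rose (median -0.07).

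**Figure D2:**
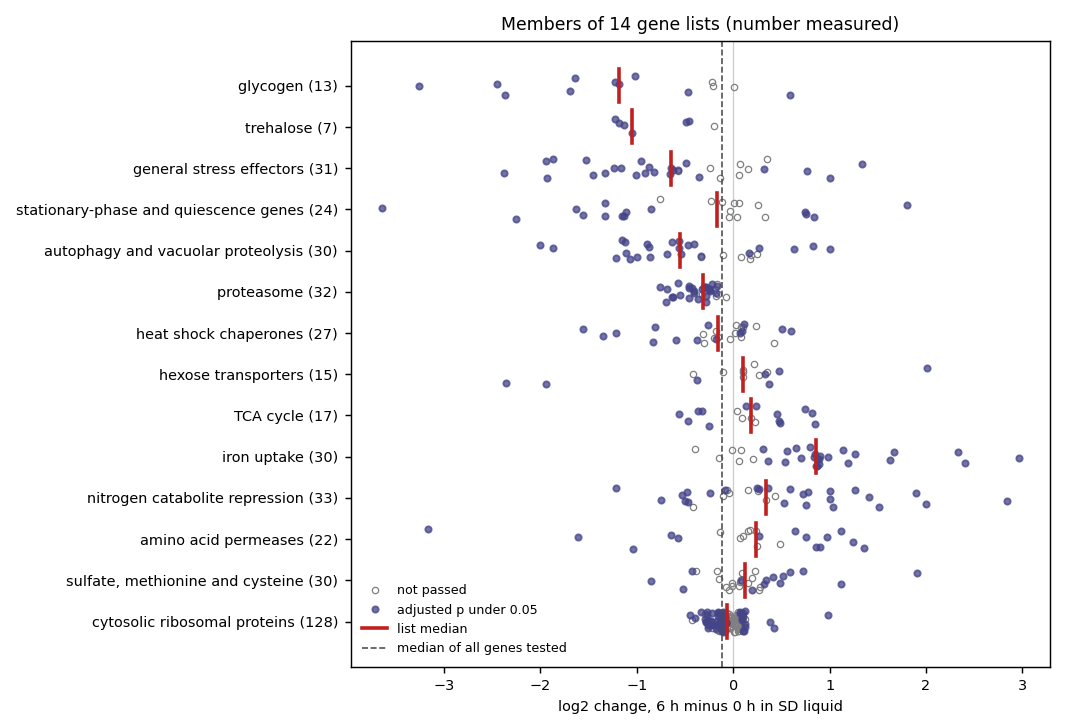
Log2 change at 6 h minus 0 h in wild-type SD liquid for every measured member of 14 gene lists. Filled points had an adjusted p under 0.05, red bars are list medians, and the dashed line is the median of all genes tested (-0.12); the glycogen list has its median at -1.18 and the iron list at 0.85.

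Cell wall genes changed in both directions. Of 44 measured, 19 rose and 11 fell, 3 on each side at least 2-fold, with a median of 0.12. CWP1, a cell wall mannoprotein, read 12.13, 12.47 and 12.51 at 6 h, against 9.39, 9.90 and 9.09 at 0 h, and rose 7.53-fold (change 2.91 ± 0.28, adjusted p = 2.37e-13). HPF1, a wall glycoprotein, changed by 1.07 ± 0.22 and GAS3, a protein of the glucanosyltransferase family, by 1.003 ± 0.16. SLT2, the MAP kinase of cell wall integrity, read 11.74, 11.91 and 11.93 at 6 h, against 13.22, 13.48 and 13.44 at 0 h, and fell 2.87-fold. Its target factor RLM1 changed by -1.17 ± 0.13 and the surface aspartic protease YPS3 by -1.27 ± 0.27. Against the 0 h agar arrays SLT2 and RLM1 were 0.07 and 0.34 higher at 6 h and YPS3 1.88 higher, while CWP1 was 0.80 higher.

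The signalling pathway that the series is about changed in both directions in liquid. FLO11, the mucin-like adhesin, read 10.30, 10.59 and 10.35 at 6 h, against 11.89, 11.37 and 12.63 at 0 h, and fell 2.94-fold (change -1.55 ± 0.29, adjusted p = 9.67e-06). The groups did not overlap, and FLO11 was lower by 1.09 on the log2 scale (change -1.09) against the 0 h agar arrays as well. The MAP kinase gene KSS1 read 9.11, 9.03 and 8.91 at 6 h, against 9.62, 9.49 and 9.89 at 0 h, and changed by -0.65 ± 0.10, and STE50, the adaptor of the kinase Ste11, by -0.71 ± 0.13. MSB2, the signalling mucin, read 12.70, 12.62 and 12.80 at 6 h, against 12.31, 12.14 and 12.24 at 0 h. Its change of 0.47 ± 0.19 passed narrowly (adjusted p = 0.0322) and no longer did so without 6 h replicate A or C or without 0 h replicate B or C (adjusted p = 0.0587 to 0.0993). TEC1 (0.16 ± 0.13), STE12 (0.28 ± 0.13) and STE11 (0.11 ± 0.07) did not pass in the signals as deposited (adjusted p = 0.27, 0.0666 and 0.147), but did after quantile normalization (0.34, 0.45 and 0.29) and after centring (0.31, 0.42 and 0.26). STE12 also passed without 0 h replicate A (adjusted p = 0.0491) and in a fit of the compared groups alone (adjusted p = 0.0281), and STE11 without 0 h replicate B (adjusted p = 0.026). With the 0 h agar arrays as the start, STE11 was higher by 0.26 and STE12 lower, at -0.37, both passing (adjusted p = 0.000181 and 0.00427). Of 28 genes of the mucin, the MAP kinase pathway and its outputs 5 rose and 11 fell, at a median of -0.08, or 0.06 after centring.

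Mating and cell cycle genes were mixed in the signals as deposited. Of 32 pheromone response and mating genes 6 rose and 12 fell, at a median of -0.00, or 0.14 after centring. PRM5, a membrane protein induced by pheromone and by wall stress, changed by -1.58 ± 0.27 and FUS1, a cell fusion protein, was not above background at 6 h and at least 1.68-fold lower, while the agglutinin anchor AGA1 rose by 1.16 ± 0.20. Of 36 G1 to S genes 5 rose and 3 fell (median 0.08), with -1.03 ± 0.22 for TOS8, a homeodomain protein. TOS8 was 2.26 higher against the 0 h agar arrays (adjusted p = 1.38e-15). After centring 17 of the G1 to S genes rose and 2 fell (median 0.23). Of 27 genes of G2, mitosis and mitotic exit 9 rose and 3 fell (median 0.16), and after centring 14 rose and 1 fell (median 0.30). Of 10 histone genes 2 rose and 4 fell (median -0.17), and of 24 bud neck and polarity genes 9 rose and 7 fell (median -0.12, or 0.03 after centring). GIC1, an effector of the polarity GTPase Cdc42, read 11.04, 11.16 and 11.10 at 6 h, against 9.70, 9.03 and 9.42 at 0 h, and changed by 1.72 ± 0.21. Of 20 multidrug transporter genes 8 rose and 4 fell (median 0.43), with 1.02 ± 0.23 for the polyamine transporter TPO4 and 0.998 ± 0.19 for PDR15. Of 9 galactose genes 4 fell and 2 rose (median -0.42), with GAL3, the galactose sensor, among the falls at -1.19 ± 0.12. GAL7 and GAL10 were not above background on any array at 6 h or 0 h. The list median is the value of GAL7, which did not pass (adjusted p = 0.122).

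Some of the largest changes fell outside these lists. PNS1 rose by 1.67 ± 0.27. NGL3, a protein of the Ccr4 nuclease family, read 5.19, 5.17 and 4.89 at 6 h, not above background, against 8.07, 8.03 and 8.18 at 0 h, and was at least 3.90-fold lower. BSC5 was at least 5.08-fold lower on the same ground. GPG1, named as a G protein gamma subunit, changed by -2.39 ± 0.22. ADA2, a subunit of the SAGA coactivator, read 6.40, 5.95 and 6.26 at 6 h, with 1 array under its background limit, against 8.99, 8.84 and 8.82 at 0 h, a change of -2.68 ± 0.51.

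Markers of other cell states were read beside these results, and their part in them was not tested. Of 19 sporulation markers 8 fell and 1 rose (median -0.05, or 0.10 after centring), 7 were not above background on any 6 h array and 6 on any 0 h array. The entry regulator IME1 was lower at 6 h. It read 6.36, 5.94 and 6.45 at 6 h, against 7.36, 7.45 and 7.74 at 0 h, with 1 array at 6 h not above background. The kinase gene IME2 changed by -0.999 ± 0.14, the spore wall gene DIT1 by -1.32 ± 0.17, and HOP1, a protein of the meiotic chromosome axis, was at least 1.09-fold lower. IME2 and DIT1 were 0.30 and 0.39 higher against the 0 h agar arrays. The 1 marker that rose was the kinase gene SMK1, at 0.60. Of 7 a-cell markers 1 rose and 2 fell (median 0.05). MFA1 averaged 7.45 at 6 h and 7.27 at 0 h, MFA2 7.76 and 7.21, STE2 8.72 and 8.59, ASG7 6.68 and 6.65, and AGA2 6.32 and 6.27, against 7.01 and 8.43 for STE6 and 6.29 and 7.08 for BAR1, both of which fell. MFA1, STE2 and ASG7 passed upwards after quantile normalization (0.55, 0.40 and 0.40), but STE2 and ASG7 in no other setting. Of 2 alpha-cell markers in the list (median 0.42) SAG1 rose: STE3 averaged 9.67 at 6 h and 9.76 at 0 h, and SAG1 10.71 and 9.78. The pheromone gene MFALPHA1, outside that count and median, averaged 5.36 at 6 h and 5.47 at 0 h. It was not above background on any of the 6 arrays, and MFALPHA2 was not read here. Of 8 stationary-phase markers SNZ1, SNO1 and FMP16 fell, HSP12 and SPG5 rose, and SPG1, SPG4 and HSP26 did not pass. URA3 was below background on all 6 arrays.

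Whether the time change in liquid differed from that on agar was tested directly, as the liquid change minus the agar change, over arrays that the 2 changes do not share. On agar, 36 genes were higher (0.661%) and 59 lower (1.08%) at 6 h than at 0 h, and at any size 10.2% rose and 11.9% fell. The liquid change was higher than the agar change by at least 2-fold in 174 genes (3.19%) and lower in 326 (5.98%), and at any size in 17% and 28.2% of genes. FLO11 fell in liquid and rose on agar: there it read 14.81 ± 0.06 at 6 h (n = 3) and 11.50 ± 0.66 at 0 h (n = 6), a rise of 3.31 ± 0.25, so that the difference was -4.87 ± 0.39 (adjusted p = 4.91e-16). NDJ1, a meiotic telomere protein, was not above background on any 6 h liquid array and at least 2.53-fold lower there. On agar it read 7.84 ± 0.25 at 6 h and was not above background on any 0 h array, so the fitted difference of -4.61 rests on background readings and gives a direction, not a size. GPM2 differed by -5.43 ± 0.43, with 7.02 ± 0.19 at 6 h and 6.13 ± 0.35 at 0 h on agar, a rise there of 0.89. YRO2, EGO4 and RGI1 differed by -3.94, -3.71 and -3.31, their agar changes of 0.75, -0.43 and -0.33 not passing the test.

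On the other side, the 6 genes with the largest difference rose in liquid and fell on agar. DAL80 had the largest difference, 5.84 ± 0.52 (adjusted p = 3e-14), with 6.97 ± 0.37 at 6 h and 9.97 ± 1.09 at 0 h on agar, a change of -3.003. CWP1 differed by 4.51 ± 0.36 and its agar change was -1.60. DAL7 differed by 3.44, HSP12 by 3.40, OPT1 by 3.35 and VBA2 by 3.22, with agar changes of -1.43, -2.06, -1.998 and -1.36, all of which passed. FIT2 differed by 3.12 ± 0.62, but its agar change of -0.16 did not pass (adjusted p = 0.837). Over the lists, in the difference, 23 of 30 iron genes were higher and none lower (median 0.74), with 4 falls and no rise on agar, and 17 of 33 nitrogen catabolite genes were higher and 7 lower (median 0.62), with 8 rises and 13 falls on agar. Of glycogen genes 8 of 13 were lower and none higher (median -0.76) and no member passed on agar, and 4 of 7 trehalose genes were lower, again with none that passed on agar. Of autophagy genes 11 of 30 were lower and 6 higher, with 12 falls and 1 rise on agar, and of proteasome genes 10 of 32 were lower and none higher, with 9 falls and no rise on agar.

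**Figure D3:**
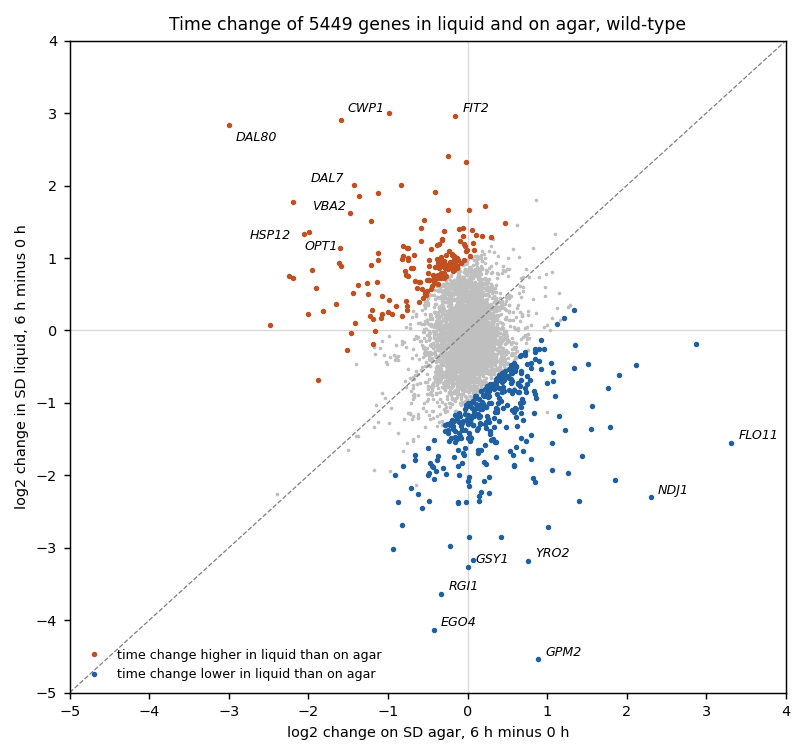
Time change (log2, 6 h minus 0 h) in SD liquid (vertical axis) against that on SD agar (horizontal axis) for each gene tested in wild-type. Coloured points are the 174 genes with a higher and the 326 with a lower change in liquid by at least 2-fold at an adjusted p under 0.05, and the dashed line marks equal changes; FLO11 lies at -1.55 in liquid and 3.31 on agar.

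**Figure D4:**
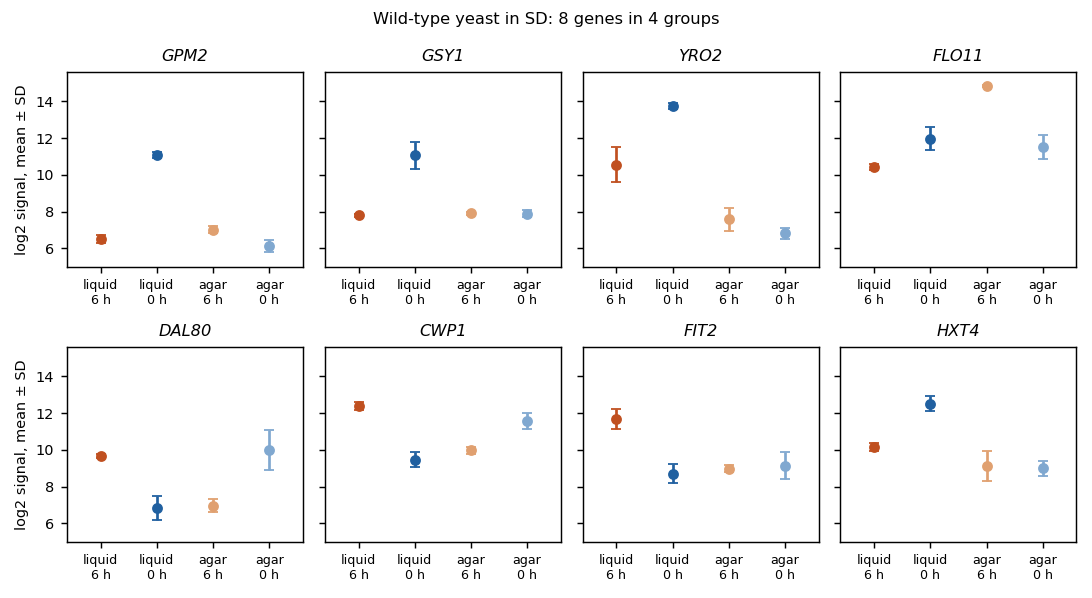
Log2 signal of 8 genes in 4 wild-type groups in SD, as mean ± SD (3 arrays each, and 6 for agar at 0 h). GPM2, GSY1, YRO2 and HXT4 are highest in liquid at 0 h, FLO11 on agar at 6 h, CWP1 and FIT2 in liquid at 6 h, and DAL80 has its highest mean on agar at 0 h, with an SD that spans its mean in liquid at 6 h.

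For some of these genes liquid and agar lay apart at 0 h, and for others at 6 h. GSY1 read 7.79 ± 0.09 in liquid and 7.90 ± 0.07 on agar at 6 h, but 11.06 ± 0.75 in liquid and 7.89 ± 0.19 on agar at 0 h. GPM2 showed the same order, with 6.54 ± 0.22 in liquid and 7.02 ± 0.19 on agar at 6 h, and 11.08 ± 0.14 in liquid and 6.13 ± 0.35 on agar at 0 h. The iron gene FIT2 had the opposite one, with 11.66 ± 0.54 in liquid and 8.98 ± 0.17 on agar at 6 h, and 8.70 ± 0.50 in liquid and 9.13 ± 0.74 on agar at 0 h. For the glycogen genes the 2 start groups differed by a median of 1.66, with 10 of 13 higher in liquid, and for the iron genes by -0.22, with 12 of 30 lower in liquid.

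The 6 h liquid level itself was set beside 9 altered or plasmid-bearing strains grown for 6 h in SD liquid (27 arrays), as averages of each list relative to wild-type at 6 h in liquid. These strains differ from wild-type by more than time, so the values are a description. The arrays with plasmids pRS313 and pRS313-STE11-4 carry the letter b in their titles, as the wild-type 0 h liquid arrays do. The glycogen average was 1.17 higher in wild-type at 0 h, and between -0.14 and 1.44 over the other strains (median 0.26), 8 of which lay below wild-type at 0 h. The trehalose average was 0.82 at 0 h and 0.03 to 1.10 over the other strains, and that of general stress effectors 0.63 at 0 h and -0.28 to 1.79. The proteasome average was 0.37 at 0 h and lower in all 9 strains (0.05 to 0.36), the highest of which lay within the spread of the 0 h arrays. For iron uptake, wild-type at 6 h in liquid was above all 9 strains (-0.64 to -0.14) and wild-type at 0 h below them all (-0.87) in group means. Single arrays overlapped: the highest of the tec1 knockout reached 0.18, against -0.08 for the lowest wild-type array at 6 h, and the lowest with plasmid pRS316-MSB2* reached -0.72, against -0.68 for the highest wild-type array at 0 h. For nitrogen catabolite repression, wild-type at 6 h was above all 9 in group means (-1.01 to -0.27), while wild-type at 0 h (-0.44) lay within their range.

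**Figure D5:**
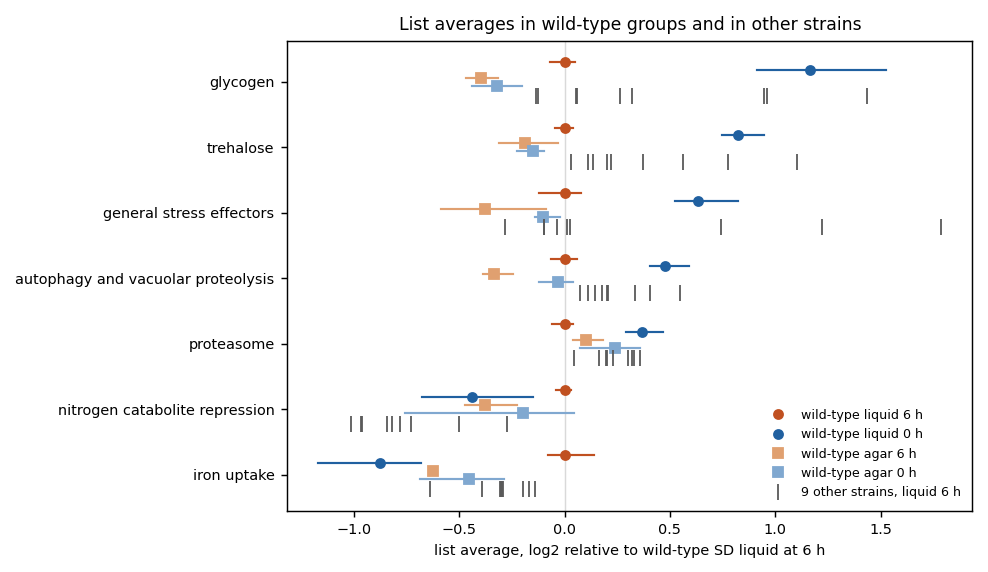
Averages of 7 gene lists (log2) relative to wild-type in SD liquid at 6 h. Circles and squares are wild-type groups in liquid and on agar, with lines from the lowest to the highest array, and ticks are the means of 9 other strains at 6 h in SD liquid; the wild-type 6 h liquid group lies at 0 by construction, above all 9 ticks for iron uptake and nitrogen catabolite repression.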

How the data were processed

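Total RNA was hybridised to Affymetrix arrays, and the authors deposited log2 signals per probe set made by RMA, per the submitters' processing notes; the version is not given in the sources used here. RMA scales arrays to a common distribution, which can hide a shift shared by most genes. Of 10928 probe sets, 7244 name 1 gene, of which 5498 match the S. cerevisiae gene table; they give 5449 genes, the brightest probe set standing for each of 47 genes with several. Each array's background limit was the 95th percentile of its 1746 probe sets that name a gene not in that table. Limma 3.58.1 (R 4.3.3) fitted 1 mean per group to all 90 arrays (moderated 2-sided test, 61 residual degrees of freedom), with Benjamini-Hochberg adjustment over all 5449 genes; every adjusted p in the text comes from limma. With 3 arrays against 3 an exact permutation test cannot go below p = 0.1, so none is given.

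Named genes were the 15 largest rises and falls and the 6 largest differences to agar on each side, 6 pathway genes, up to 6 changed members of each list, members of lists of up to 8 genes, and the 3 brightest genes. The comparison and the 52 lists were chosen with earlier results of these data known. On simulated data of 5449 genes with independent noise, calls at both thresholds recovered 48% of 50 genes changed by 1 log2 unit. That size is the fold threshold itself, and by adjusted p alone 96% of them were recovered. At both thresholds 98% were recovered at 1.5 and 100% at 2, with 0 false calls. Alternatives were quantile normalization, centring, a filter on dim genes, mean probe sets, no fold threshold, the compared arrays alone, a replicate block, other starting arrays and leaving out each array. The other strains on agar and in other media were not used here beyond the shared estimate of spread.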

Additional observations from a re-analysis of the deposited data

Results flagged for a closer look

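The time change in SD liquid differed from that on SD agar, by the test of the difference itself, in 174 genes that were higher and 326 that were lower by at least 2-fold. Among named genes the lower side was led by GPM2 at -5.43, FLO11 at -4.87, YRO2 at -3.94, EGO4 at -3.71 and RGI1 at -3.31. NDJ1 had a fitted difference of -4.61, whose size cannot be read because it was not above background in liquid at 6 h or on agar at 0 h. FLO11 and GPM2 rose on agar, and the agar changes of YRO2, EGO4 and RGI1 did not pass the test. The higher side was led by the repressor gene DAL80 at 5.84, the wall gene CWP1 at 4.51, the malate synthase gene DAL7 at 3.44, the stress gene HSP12 at 3.40, the peptide transporter gene OPT1 at 3.35 and the vacuolar permease gene VBA2 at 3.22.

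Of the 6 agar arrays at 0 h, 1 lay far from the rest in 7 of 141 named genes, and chance gives such a gap in about 1 of 20 groups. Replicate D stood apart with 9.18 for PNS1, 10.67 for HSP12, 11.35 for DAL5, 9.91 for AQY2 and 9.79 for SAG1. Replicate F stood apart with 7.52 for COX5B and 13.01 for GPD2. The 3 arrays of a liquid group are too few for this comparison.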

How the results depend on the processing

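The number of arrays, 3 at each time, limits the precision, and genes near background on the arrays of 1 time have bounds in place of folds. At least 2-fold higher at 6 h in SD liquid were 82 genes in the signals as deposited, 135 after quantile normalization, 155 after centring each array and 1107 with no fold threshold. Lower at 6 h were 265 genes as deposited, 128 without the dimmest 25% of genes (fewer genes tested), 74 with the 0 h agar arrays as the start, and 1933 with no fold threshold. For the difference between liquid and agar, 928 genes were higher and 1534 lower with no fold threshold, and 214 were lower after quantile normalization and 157 without the dimmest genes. Apart from thresholds and numbers tested, the cause was not tested. Leaving out 1 array at a time gave 73 to 97 higher and 244 to 294 lower genes, and 159 to 184 higher and 308 to 341 lower genes in the difference.

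Of the named changes that had passed with the liquid start, 49 turned their sign with the 0 h SD agar arrays as the start. The 40 that had been lower at 6 h had these log2 changes: YRO2 3.73, TOS8 2.26, PHM8 2.02, YPS3 1.88, ZRT1 1.54, GLG1 1.23, HXT4 1.17, AQY2 1.06, TDH1 1.02, YGP1 0.82, HSP42 0.77, AGP1 0.72, HSP104 0.70, MTH1 0.67, TSL1 0.64, GPH1 0.64, IGD1 0.63, GLC3 0.62, URA8 0.55, RGI1 0.54, BAP3 0.54, HSP78 0.53, EGO4 0.48, PGM2 0.46, GPM2 0.40, DIT1 0.39, RLM1 0.34, GSY2 0.32, IME2 0.30, GCY1 0.21, TPS1 0.19, HXT7 0.15, MDH1 0.13, BSC5 0.12, STF2 0.11, NTH2 0.082, URA10 0.081, SLT2 0.070, TPS2 0.035 and GPG1 0.030. BAP3 and BSC5 were not above background in liquid at 6 h or on agar at 0 h, so their signs with that start cannot be read. The 9 that had been higher had these: ALD6 -1.02, HSP12 -0.85, SUL1 -0.73, TIS11 -0.64, DAL80 -0.30, DAL5 -0.19, DAL7 -0.11, VHT1 -0.071 and MFA2 -0.057. Of the other named changes, 34 did not pass with that start, some of which had not passed before. Among them were GSY1 (-0.10), GAP1 (0.51), HXK1 (-0.12), SSA1 (-0.11), OPT1 (0.32), VBA2 (0.40), SIT1 (0.53) and MET8 (0.01). Another 54 kept their direction and side of the threshold, and 4 passed that had not with the liquid start. Some changes that had not passed before also turned their sign, with STE12 at -0.37 and STE3 at 0.40 among these 4. The cause was not tested. No alternative of scaling, probe sets or arrays turned the sign of a named change that passed the test. Over all genes, deviations of same-lettered 6 h and 0 h arrays from their group means correlated at -0.16 (A), 0.08 (B) and -0.20 (C). Those of arrays with unlike letters correlated at -0.09 (6 h A with 0 h B) to 0.28 (6 h A with 0 h C). In groups this small the deviations are tied to each other through the group mean. These values therefore cannot show whether the letters pair the arrays. With the replicate block, 82 genes were higher and 265 lower at 6 h, and no named gene moved across the threshold. In the difference, 209 were higher and 338 lower with the block, in a fit that kept only replicates A to C of the 0 h agar arrays. Keeping only these 0 h agar replicates without a block gave 208 higher and 336 lower.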
